A study of Capra hircus with 3 samples.

Results

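The genes described are HAL (ENSCHIG00000018871), SDS (ENSCHIG00000021911), GLDC (ENSCHIG00000022064), GOT1 (ENSCHIG00000024327) and UPP2 (ENSCHIG00000017869), 5 of the 27271 genes in the deposited goat liver matrices. They were found by symbol, and they had been selected on measured values from these same libraries, as enzymes of amino acid breakdown that stood together in hepatocytes. Their levels and their detection in the same cells therefore partly restate that selection and are given as descriptions. Liver came from 15 female goats aged 3 to 4 years, in 3 groups of 5. Con goats were healthy and received the LRDS diet. The other groups received the HRDS diet: NASH goats had non-alcoholic steatohepatitis, and NASH-T goats formed the group called tolerant of it. The labels spell out neither diet name and do not say how tolerance was defined. Each group's 5 livers gave 1 mixed single-cell library after trypsin digestion, so diet, disease, pool and handling cannot be told apart, and no value carries a spread between goats.

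Hepatocytes divide their work along the blood flow from the portal tract to the central vein. Periportal cells receive the amino acids and oxygen of incoming blood and carry much of the breakdown of amino acids, urea formation and glucose production, and pericentral cells carry bile acid synthesis and much of drug oxidation. HAL removes ammonia from histidine in the first step of its breakdown, SDS turns serine into pyruvate and ammonia, GLDC is the decarboxylase of the glycine cleavage system, and GOT1 is the cytosolic aminotransferase between aspartate and glutamate. UPP2, a uridine phosphorylase, splits uridine into uracil and a sugar phosphate, so by its known reaction it belongs to pyrimidine breakdown and not to amino acid breakdown.

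After filtering, 7200 cells of Con, 8389 of NASH and 8914 of NASH-T remained, with medians of 2392.5, 2472 and 2127.5 UMIs (unique molecular identifiers, 1 per captured RNA molecule) per cell. Of the 24503 cells, 10024 were hepatocyte-like by clusters and markers: 2855, 4058 and 3111, with medians of 4198, 3863.5 and 4035 UMIs. They fell into clusters 0, 1, 5, 6 and 8, and clusters 5 and 6 were almost confined to NASH, with 1415 and 1376 of its cells against 4 and 11 of Con and 38 and 46 of NASH-T. HAL, UPP2, GOT1 and GLDC stood among the 10 leading genes of cluster 0, and UPP2 and GLDC among those of cluster 5, so levels across clusters partly restate how the clusters arose. Pairs of libraries shared 20 to 23 cell barcodes, at most 0.281% of the smaller library.

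HAL, GLDC, GOT1 and UPP2 were hepatocyte genes in every library, and SDS was not. Values are CPM, the UMIs of a gene as a part of all UMIs of the cell class in the usual counts-per-million scale, with exact 95% Poisson intervals that cover counting error only. HAL had 35.1 CPM in hepatocyte-like cells of Con, 40.3 in NASH and 72.7 in NASH-T, and 0.497, 0.620 and 0.895 CPM in macrophage-like cells. GLDC stood at 111 (105.7 to 116.8), 237 (230.3 to 243.9) and 214 (206 to 221) CPM in hepatocyte-like cells and between 2.24 and 5.27 CPM in macrophage-like cells. GOT1 was the most widely detected of the 4, at 17.7, 14.4 and 13.5 CPM in T cell-like cells beside 71.8, 91.7 and 132 CPM in hepatocyte-like cells.

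The share of cells with a UMI depends on depth, so each cell was also thinned at random to 1000 UMIs, which left out 176, 205 and 198 shallower hepatocyte-like cells. UPP2 was found in 24.9%, 43.6% and 25.7% of hepatocyte-like cells before thinning and in 11.8%, 25.2% and 12.4% after it. In T cell-like cells, which have medians of 1174, 1024 and 1192 UMIs and serve as the background from free RNA, UPP2 was found in 0.388%, 0.963% and 0.875% of cells before thinning and 0.503%, 0.660% and 0.531% after. Thinned shares for GLDC were 8.51%, 16.9% and 15.4% of hepatocyte-like cells against 0.101%, 0.396% and 0.531% of T cell-like cells, and unthinned shares were 22.3%, 39.2% and 36.7% against 0.0646%, 0.206% and 0.437%. For GOT1 the thinned shares were 5.79%, 7.99% and 10.4% against 1.61%, 0.923% and 1.37%, and the unthinned ones 18.8%, 24.2% and 29.8% against 1.87%, 1.51% and 1.65%. HAL reached 2.95%, 3.27% and 5.49% of thinned hepatocyte-like cells, and 10.02%, 10.9% and 15.6% of unthinned ones. Its thinned T cell-like shares were 0 of 994 and 0 of 758 cells in Con and NASH, which allow up to 0.302% and 0.396%, and 1 cell of 1318, or 0.0759%, in NASH-T. Unthinned, 0.194%, 0 of 1454 and 0.146% of T cell-like cells had a UMI of HAL. All 4 genes therefore lay above this background in every library.

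**Figure D1:**
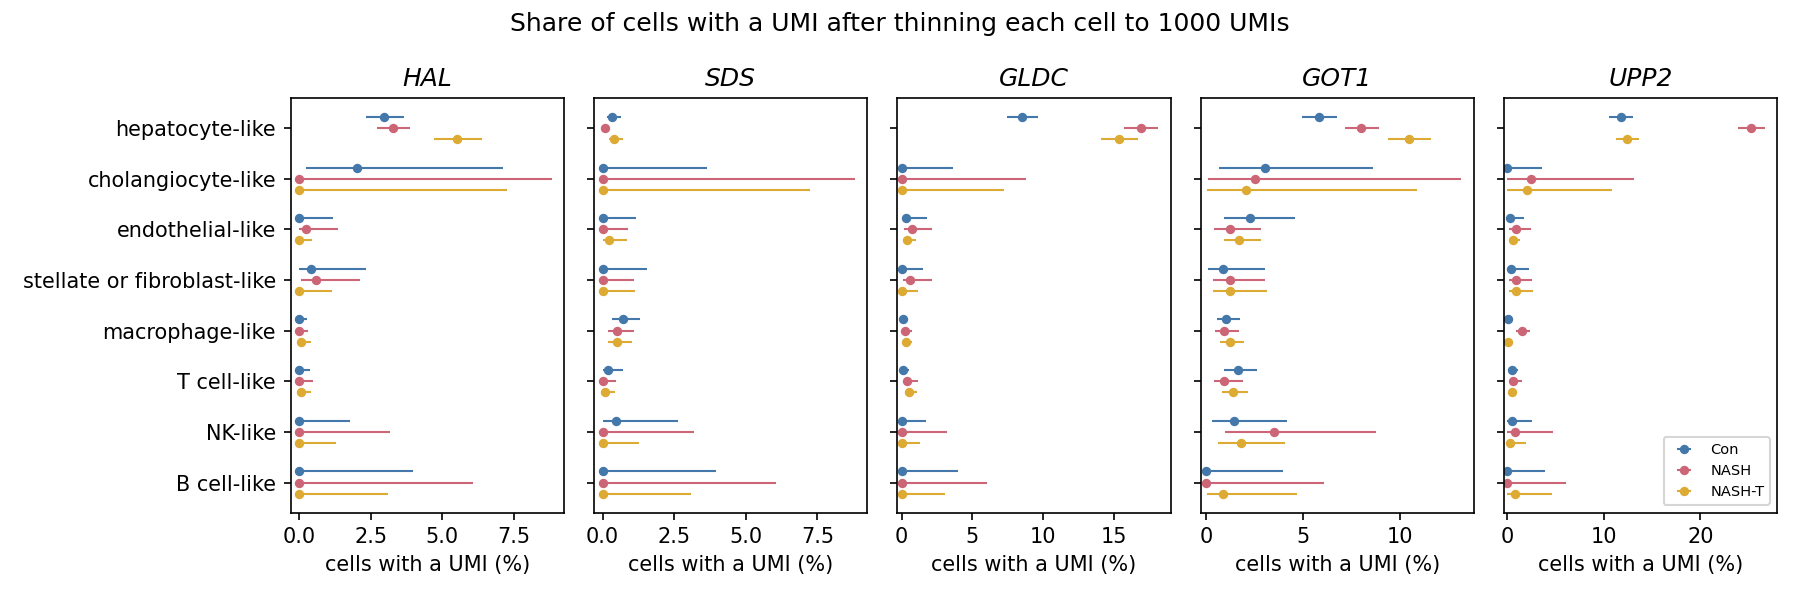
Share of cells with at least 1 UMI of each gene (horizontal axis, percent) by cell class (vertical axis) after thinning each cell to 1000 UMIs; points are the 3 pooled libraries and bars are exact 95% binomial intervals. HAL, GLDC, GOT1 and UPP2 are highest in hepatocyte-like cells, while SDS is at or below 0.700% in hepatocyte-like and macrophage-like cells alike.

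UPP2 in macrophage-like cells followed the same order of libraries as in hepatocyte-like cells, at 4.22 CPM in Con, 13.6 in NASH and 4.47 in NASH-T. Its thinned share there was 0.156%, 1.52% and 0.143%. Free RNA from hepatocytes as a part of these values was not tested.

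SDS was no higher in hepatocyte-like cells than in macrophage-like cells, against its label as a hepatocyte gene. It had only 64, 24 and 55 UMIs in hepatocyte-like cells of Con, NASH and NASH-T, in 45, 17 and 38 cells, or 4.56 (3.51 to 5.82), 1.21 (0.777 to 1.80) and 3.67 (2.76 to 4.77) CPM. Macrophage-like cells had 5.22 (3.23 to 7.98), 4.34 (2.37 to 7.28) and 5.59 (3.62 to 8.26) CPM. In NASH the hepatocyte-like interval lay below the macrophage-like one, and in Con and NASH-T the intervals overlapped. Thinned shares were 0.336%, 0.0779% and 0.412% of hepatocyte-like cells and 0.700%, 0.507% and 0.499% of macrophage-like cells, and 0.201%, 0 of 758 cells and 0.0759% of T cell-like cells. Unthinned, 1.58%, 0.419% and 1.22% of hepatocyte-like cells had a UMI of SDS, against 0.517%, 0.138% and 0.0972% of the shallower T cell-like cells. In CPM, T cell-like cells stood at 4.05 (1.75 to 7.97), 1.20 (0.145 to 4.33) and 0.731 (0.0886 to 2.64). The hepatocyte-like level of SDS thus overlapped this background in Con and NASH and lay above it in NASH-T. SDSL, the related serine dehydratase-like gene, was as sparse, at 2.99, 4.09 and 4.20 CPM in hepatocyte-like cells.

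The 5 genes did not follow 1 common order of libraries. GLDC was higher in both HRDS libraries than in Con, UPP2 was higher in NASH alone, and HAL and GOT1 were highest in NASH-T. Since all ratios against Con share 1 library, they are not independent of each other. In this class fewer expressing cells and less RNA per cell both lower a summed level, and the shares above give the first of them.

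**Figure D2:**
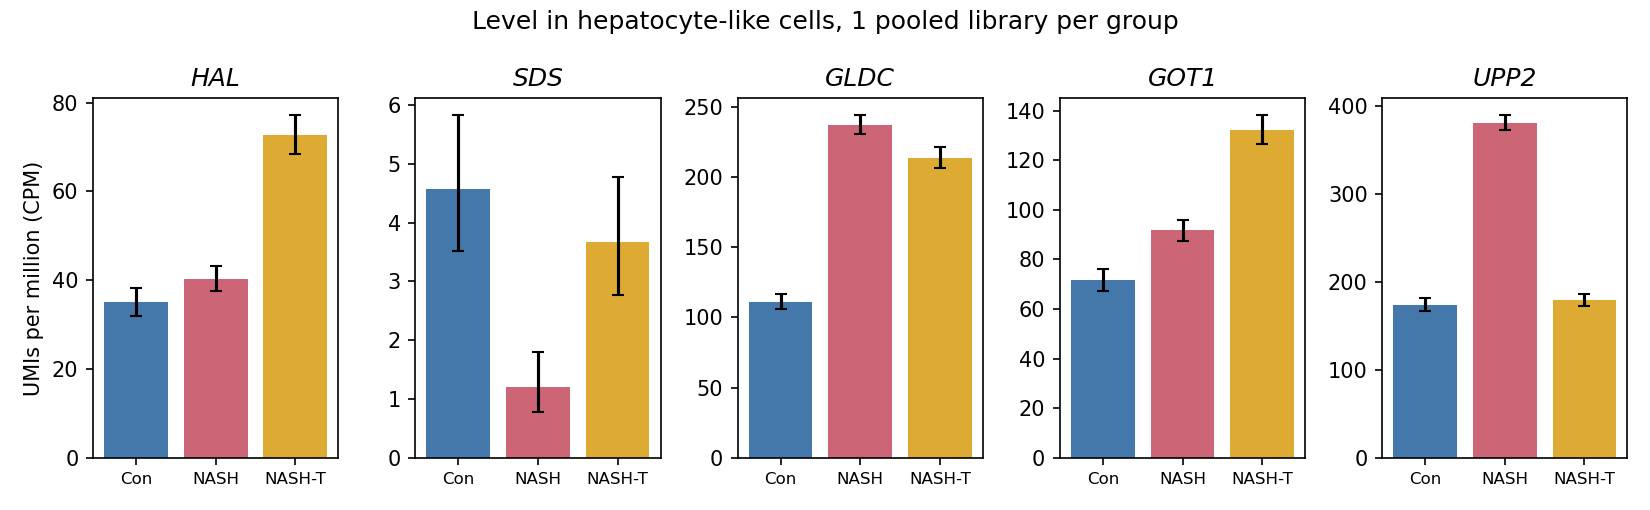
Level in CPM (vertical axes, each starting at 0 with its own scale) of the 5 genes in hepatocyte-like cells of the 3 pooled libraries; error bars are exact 95% Poisson intervals of the counts. HAL and GOT1 are highest in NASH-T, UPP2 is highest in NASH at 381, and SDS is lowest in NASH at 1.21.

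Against Con, 2 of the 5 genes were higher by at least 1.5-fold in NASH and 1 was lower, beside 6.97% and 14.2% of the 13251 genes measured. UPP2 was 2.19-fold higher in NASH than in Con (exact conditional binomial 95% interval 2.09 to 2.29), at 381 against 174 CPM. GLDC was 2.13-fold higher (2.01 to 2.26). HAL and GOT1 stayed below 1.5-fold, with ratios of 1.15 (1.03 to 1.29) and 1.28 (1.18 to 1.38). SDS was 3.76-fold lower, a ratio of 0.266 (0.159 to 0.431). In both libraries its CPM interval overlapped that of T cell-like cells. The median gene had a log2 ratio of -0.12 in this comparison, -0.10 for NASH-T to Con and 0.00 for NASH-T to NASH.

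In NASH-T against Con, 3 of the 5 genes were higher by at least 1.5-fold and 0 were lower, beside 6.56% and 10.9% of the 13097 genes measured. HAL had a ratio of 2.07 (1.86 to 2.31), GLDC one of 1.92 (1.81 to 2.05) and GOT1 one of 1.84 (1.71 to 1.99). UPP2 stood at 180 CPM against 174, a ratio of 1.03 with an interval of 0.976 to 1.09. The ratio of SDS was 0.804 (0.550 to 1.17), not distinguishable from 1 at this depth.

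Between the 2 HRDS libraries, 2 of the 5 genes were higher in NASH-T by at least 1.5-fold and 1 was lower, beside 10.5% and 7.04% of the 13246 genes measured. HAL was 1.80-fold higher in NASH-T than in NASH (1.64 to 1.98), and GOT1 was 1.44-fold higher (1.35 to 1.54). UPP2 was 2.12-fold lower, a ratio of 0.472 (0.451 to 0.493). Over all hepatocyte-like cells GLDC was nearly level, with a ratio of 0.902 (0.862 to 0.943). In clusters 0 and 1 taken singly, its ratio was above 1, at 1.10 (1.02 to 1.18) and 2.31 (1.81 to 3.01). SDS had a ratio of 3.02 (1.84 to 5.11). Summed over the clusters that every library fills, HAL was at 1.30 (1.15 to 1.48) and SDS at 0.997, so neither reached 1.5-fold in that sum. The sum still carries the mix of these clusters. Taken singly, HAL was at 1.46 (1.29 to 1.67) in cluster 0 and 1.14 (0.439 to 3.32) in cluster 8. In cluster 1 it was at 4.05 (1.90 to 10.3), on 7 UMIs of NASH.

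The low SDS value of NASH lay in the clusters that Con and NASH-T scarcely hold. In clusters 0, 1 and 8 together, SDS had 64 UMIs in 2840 cells of Con, 21 in 1267 of NASH and 54 in 3027 of NASH-T, or 4.58, 3.70 and 3.69 CPM. In clusters 5 and 6 NASH had 3 UMIs in 2791 cells, or 0.213 CPM (0.0438 to 0.621). Summed over clusters 0, 1 and 8, the SDS ratio of NASH to Con was 0.809 (0.469 to 1.34), and that of NASH-T to NASH was 0.997 (0.593 to 1.74). Within NASH, SDS was 18.6-fold lower in cluster 5 than in cluster 0, on 2 against 16 UMIs (ratio 0.0538, 0.00601 to 0.229).

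Other genes also depended on these clusters. HAL in NASH to Con was 1.61 (1.40 to 1.86) with clusters 0, 1 and 8 summed together and 1.15 over all hepatocyte-like cells. GLDC in NASH to Con was 1.80 (1.66 to 1.94) in that sum and UPP2 1.80 (1.70 to 1.92). The sum still carries the mix of clusters, with 698 and 350 cells of NASH in clusters 0 and 1 against 1195 and 1345 of Con. In clusters 0, 1 and 8 taken singly, HAL in NASH to Con was at 1.33 (1.15 to 1.55), 0.493 (0.189 to 1.09) and 1.06 (0.348 to 2.99). In clusters 1 and 8 it rested on 7 UMIs of NASH each, and the intervals held 1. In the same order, GLDC was at 1.45 (1.33 to 1.57), 1.34 (1.01 to 1.77) and 1.29 (0.779 to 2.11). UPP2 was at 1.37 (1.29 to 1.46), 1.11 (0.675 to 1.77) and 2.01 (1.24 to 3.30). In the sum, GLDC in NASH-T to NASH turned from 0.902 to 1.05 (0.982 to 1.13). Taken singly, it was at 1.10 (1.02 to 1.18) in cluster 0, 2.31 (1.81 to 3.01) in cluster 1 and 1.27 (0.827 to 2.01) in cluster 8. In clusters 5 and 6, with 38 and 46 cells of NASH-T, it was at 1.64 (1.35 to 1.97) and 1.99 (1.26 to 3.00). The lower UPP2 of NASH-T against NASH kept its direction in the sum, at 0.561 (0.528 to 0.596). In clusters 0, 1 and 8 taken singly, this ratio was 0.673 (0.632 to 0.716), 0.925 (0.579 to 1.53) and 0.387 (0.231 to 0.6399). The interval of cluster 1 held 1. In cluster 5, with 38 cells of NASH-T, the UPP2 ratio was 1.01 (0.8397 to 1.21). In cluster 6 it was below 1, on 1 UMI of NASH-T.

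**Figure D3:**
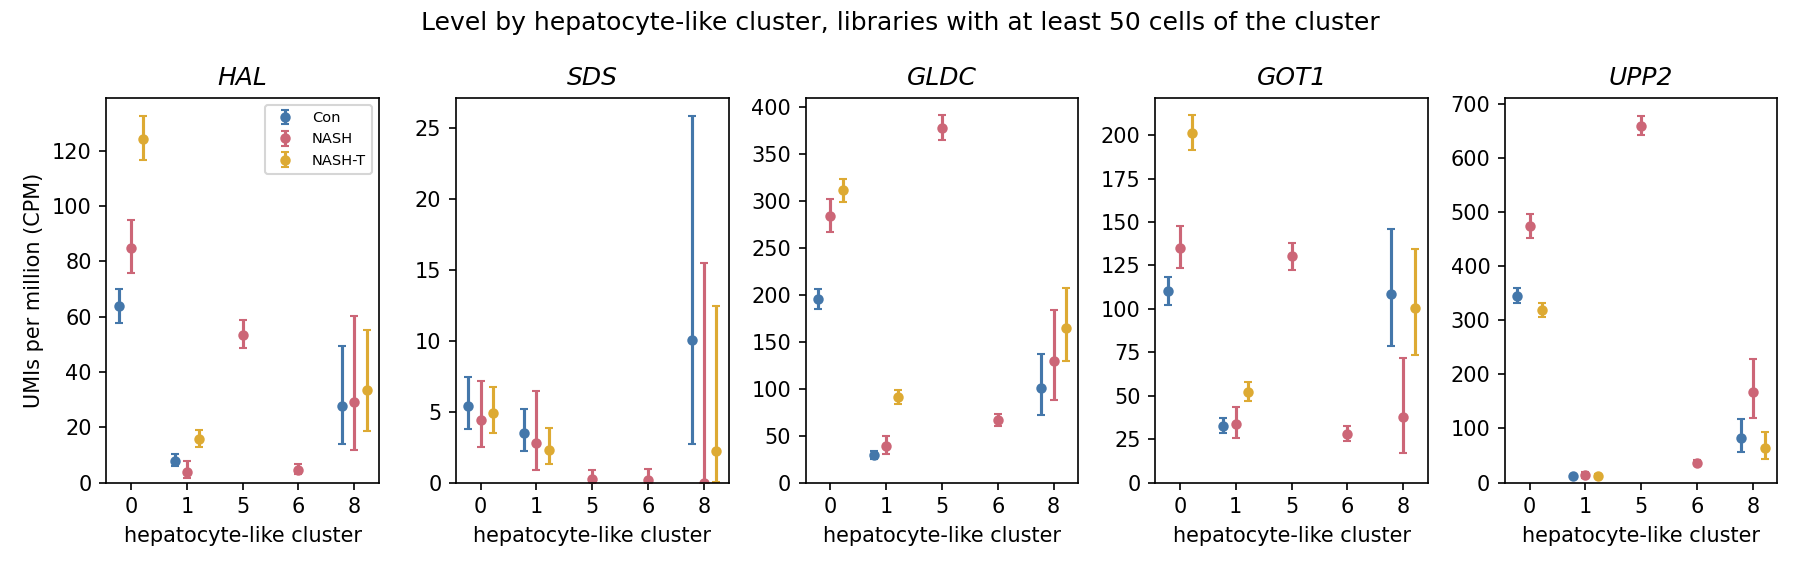
Level in CPM (vertical axes, each starting at 0 with its own scale) of each gene in hepatocyte-like clusters 0, 1, 5, 6 and 8, for libraries with at least 50 cells of the cluster; error bars are exact 95% Poisson intervals. Clusters 5 and 6 show NASH alone. UPP2 is at 659 in cluster 5 and at most 36.7 in clusters 1 and 6, and SDS is near 0 in clusters 5 and 6.

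Cluster by cluster, HAL stood at 63.7, 85.0 and 124 CPM in cluster 0 of Con, NASH and NASH-T and at 7.84, 3.86 and 15.7 CPM in cluster 1, which was led by FMO1 and the pericentral gene LGR5. UPP2 had the steepest contrast, at 345, 473 and 318 CPM in cluster 0 and 11.9, 13.3 and 12.3 CPM in cluster 1. GOT1 was shallower, at 110.0, 135 and 201 CPM against 32.4, 33.7 and 52.1 CPM. SDS stood at 5.37, 4.41 and 4.91 CPM in cluster 0 and 3.48, 2.76 and 2.33 CPM in cluster 1, with overlapping intervals in every library. The ratio of cluster 0 to cluster 1 for SDS was 1.54 (0.895 to 2.70) in Con, 1.60 (0.560 to 5.58) in NASH and 2.11 (1.13 to 4.13) in NASH-T.

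The same contrast appeared inside the NASH clusters. Cluster 5, led by the fatty acid synthase gene FASN, held 659 CPM of UPP2, 378 of GLDC, 130.2 of GOT1 and 53.5 of HAL. Cluster 6, with CYP7A1, the rate-limiting enzyme of bile acid synthesis, among its leading genes, held 36.7, 66.4, 27.9 and 4.56 CPM. Against cluster 0 of the same library, cluster 5 had 1.39 times the UPP2 (1.32 to 1.47) and 1.33 times the GLDC (1.24 to 1.43), but 0.629 times the HAL (0.543 to 0.730), while GOT1 was near level at 0.963 (0.865 to 1.07).

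GLDC differed between libraries in the FMO1-led cluster as well as in cluster 0. In cluster 1 it stood at 29.2, 39.2 and 90.7 CPM in Con, NASH and NASH-T, so that NASH-T was 3.11 times as high as Con (2.65 to 3.67). In cluster 0 it stood at 196, 284 and 311 CPM, with a ratio of 1.59 (1.49 to 1.70). The 2 intervals do not overlap, though with 1 library each the difference was not tested. HAL and GOT1 were also higher in NASH-T than in Con in both clusters. Their ratios were 2.00 (1.42 to 2.84) and 1.61 (1.36 to 1.92) in cluster 1, and 1.95 (1.74 to 2.19) and 1.83 (1.68 to 2.00) in cluster 0. UPP2 and SDS were not, at 1.03 (0.746 to 1.42) and 0.668 (0.326 to 1.33) in cluster 1 and 0.921 and 0.914 in cluster 0.

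Zonal position was read from landmark genes found in the same thinned cell, as observed cells over those expected from the single shares within each library. Over the 3 libraries together, of the pericentral landmarks with at least 5 expected cells, UPP2 was below expectation, with the interval under 1, for 11 of 15, GLDC for 10 of 15, HAL for 9 of 13 and GOT1 for 8 of 14. For LGR5, UPP2 was found with it in 50 cells where 273 were expected, a ratio of 0.183 (0.136 to 0.242). HAL was found with LGR5 in 13 cells where 63.7 were expected, a ratio of 0.204 (0.109 to 0.349). GLDC and GOT1 had LGR5 ratios of 0.450 (0.366 to 0.547) and 0.423 (0.320 to 0.550). CYP7A1 was under expectation too, from 0.246 with HAL to 0.497 with GOT1.

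Of the 15 periportal landmarks, UPP2 and GLDC were above expectation, with the interval over 1, for 6 each, and HAL and GOT1 for 4 each, over the 3 libraries together, where none of the 4 had an interval under 1. Within NASH-T, GOT1 was below expectation with CDH1, at 0.697 (0.479 to 0.978). HAL was found with HSD17B13, a lipid droplet enzyme, in 101 cells where 49.4 were expected, a ratio of 2.04 (1.67 to 2.48). UPP2 had a ratio of 1.90 (1.73 to 2.08) with HSD17B13, GLDC one of 1.56 (1.39 to 1.75) and GOT1 one of 1.52 (1.30 to 1.78). With GLS2, the liver glutaminase, HAL had 1.92 (1.25 to 2.81), GLDC 1.83 (1.48 to 2.23), UPP2 1.80 (1.49 to 2.14) and GOT1 1.40 (1.00 to 1.90). ALB, CPS1 and PCK1 were found in nearly all cells and gave ratios between 0.991 and 1.07 with these 4 genes.

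SLC1A2, the glutamate transporter listed as pericentral, went the other way, with ratios from 1.14 (1.05 to 1.23) for UPP2 to 1.27 (1.09 to 1.48) for HAL. RNF43 and LECT2 from the same list gave ratios between 0.918 and 1.07. SDS reached 5 expected cells with 7 pericentral and 8 periportal landmarks, and none of the 15 intervals left 1 out.

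**Figure D4:**
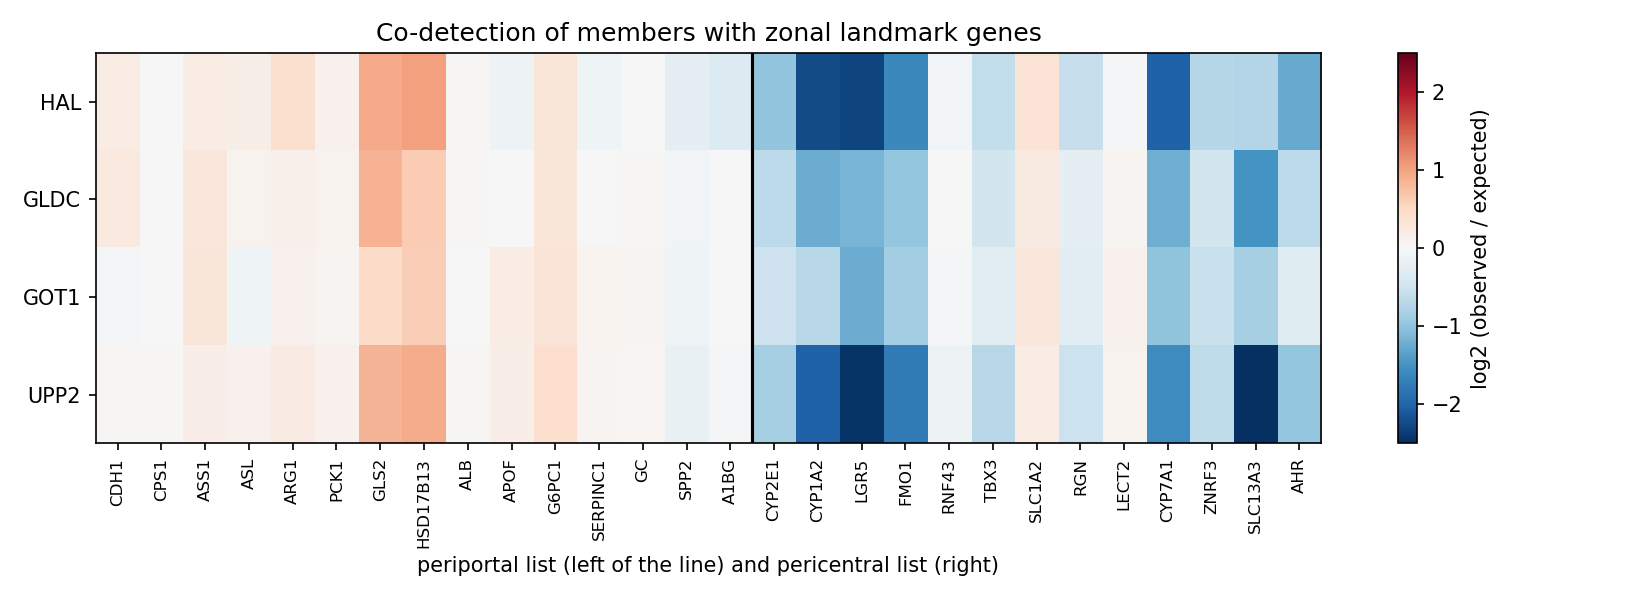
Log2 of observed over expected thinned hepatocyte-like cells with UMIs of both genes, for 4 members (rows) and landmark genes (columns) with at least 5 expected cells for each of the 4; red is above and blue below expectation. LGR5, CYP1A2, FMO1 and CYP7A1 columns are blue throughout, GLS2 and HSD17B13 are red, and SLC1A2 is red among the pericentral genes.

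FMO1, a flavin monooxygenase, was the gene of lowest mean correlation with HAL, GLDC, GOT1 and UPP2 among 4442 compared. Thinned cells were therefore split by a UMI of FMO1, a choice made after its values were seen. The direction of the contrasts between the 2 kinds of cell follows from that choice. Their intervals cover counting error only. Cells without FMO1 made up 48.9%, 60.7% and 58.7% of the thinned cells of Con, NASH and NASH-T. UPP2 was 7.34-fold (5.47 to 10.01), 5.24-fold (4.45 to 6.20) and 7.27-fold (5.35 to 10.1) higher in cells without FMO1 than in cells with it. HAL was 4.79-fold (2.81 to 8.65), 4.26-fold (2.62 to 7.32) and 7.30-fold (4.49 to 12.6) higher. GLDC was 3.38-fold, 3.02-fold and 2.86-fold higher, and GOT1 1.96-fold, 3.22-fold and 2.83-fold higher.

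Differences between libraries appeared on both sides of that split for GLDC and UPP2. GLDC in cells with FMO1 had 49.7, 100.3 and 100.7 CPM in Con, NASH and NASH-T, and in cells without FMO1 168, 303 and 288 CPM. Its ratio of NASH-T to Con was 2.03 (1.49 to 2.77) and 1.72 (1.46 to 2.02) in the 2 kinds of cell. UPP2 in NASH to Con was 2.85 (2.07 to 3.97) with FMO1 and 2.03 (1.81 to 2.29) without. In the FMO1-led cluster 1, however, its NASH to Con ratio was 1.11 (0.675 to 1.77). FMO1 itself was at 0.652 (0.638 to 0.666) in NASH to Con, so the split need not take the same cells in each library. The higher HAL of NASH-T was seen in cells without FMO1, at 109 CPM against 59.5 in Con, a ratio of 1.84 (1.40 to 2.42). With FMO1 the ratio was 1.21 (0.586 to 2.49), on 18 and 17 UMIs, an interval that holds both 1 and the other value. In the FMO1-led cluster 1, the HAL ratio of NASH-T to Con was 2.00 (1.42 to 2.84), on 101 and 54 UMIs.

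Of the 2679, 3853 and 2913 thinned cells, 91, 150 and 110 had no UMI of any pericentral landmark. UPP2 was found in 36.3% (26.4 to 47.0), 46.7% (38.5 to 55.0) and 32.7% (24.1 to 42.3) of those cells, against 10.9%, 24.4% and 11.6% of the cells with such a UMI. GLDC was found in 15.4% (8.67 to 24.5), 29.3% (22.2 to 37.3) and 24.5% (16.8 to 33.7), against 8.27%, 16.4% and 15.0%. In Con, on 14 cells, its interval overlapped the 7.24 to 9.40 of the cells with such a UMI. HAL was found in 4.40% (1.21 to 10.9), 10.0% (5.71 to 16.0) and 14.5% (8.55 to 22.5), against 2.90%, 3.00% and 5.14%, so that in Con, on 4 cells, the interval held the other value. GOT1 was found in 7.69% (3.15 to 15.2), 9.33% (5.20 to 15.2) and 16.4% (10.00 to 24.6), against 5.72%, 7.94% and 10.2%, with overlapping intervals in every library. The matching split by the periportal list was void, as 0, 0 and 1 cells had none of its UMIs.

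HAL, GLDC, GOT1 and UPP2 were found in the same cells more often than their single shares gave, which describes the property they had been selected for. Over the 9445 thinned cells, HAL and GOT1 were found together in 76 cells where 31.3 were expected, a ratio of 2.42 (1.91 to 3.04). HAL and UPP2 had a ratio of 2.07 (1.72 to 2.46), GLDC and UPP2 1.85 (1.68 to 2.03), GOT1 and UPP2 1.80 (1.58 to 2.04), GLDC and GOT1 1.62 (1.39 to 1.87) and HAL and GLDC 1.42 (1.12 to 1.79). For HAL and GLDC in NASH-T alone the ratio was 1.14, with an interval of 0.756 to 1.64 that held 1. At least 3 of the 5 genes were found in 0.784%, 1.92% and 1.58% of cells in Con, NASH and NASH-T, where independent detection gives 0.126%, 0.563% and 0.454%.

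Much of this lay between clusters. With the expectation taken within library and cluster, HAL and GLDC were at 0.992, HAL and GOT1 at 1.72, and the other 4 pairs without SDS between 1.20 and 1.26. HAL and GLDC, both high in cluster 0, were thus not found together more often than their shares within clusters gave. The 4 pairs with SDS rested on 1 to 5 cells each, with ratios from 0.497 with GOT1 to 1.96 with HAL, and their intervals held 1. GLDC and UPP2 had the highest Pearson correlations of log counts over cells, at 0.17, 0.19 and 0.16 in the 3 libraries, weak values in sparse counts, over cells of 1 library thinned to the same depth.

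**Figure D5:**
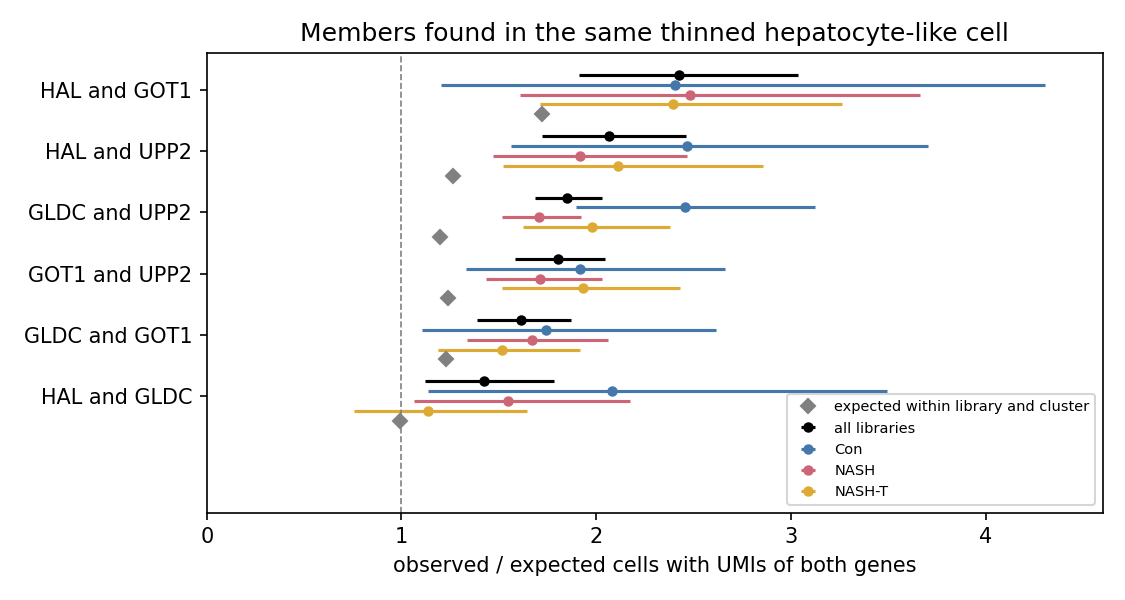
Observed over expected number of thinned hepatocyte-like cells with UMIs of both genes (horizontal axis, dashed line at 1) for the 6 pairs without SDS; circles are all libraries and each library with exact 95% Poisson intervals of the observed number, and grey diamonds take the expectation within library and cluster. All circles lie above 1, and the diamond of HAL and GLDC lies at 0.992.

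By the mean correlation over the 3 libraries, the gene most like UPP2 was CCDC148, at 0.24, and KCND3, RORB and GLDC were also among its nearest 5. CCDC148 is also a neighbour of UPP2 in the RefSeq annotation of assembly ARS1.2, and its levels of 57.9, 118 and 58.3 CPM gave the ratio pattern of UPP2: 2.04 (1.88 to 2.21) for NASH to Con, 1.01 (0.915 to 1.11) for NASH-T to Con and 0.495 (0.458 to 0.536) for NASH-T to NASH. The 2 genes were found together in 343 cells where 133 were expected, a ratio of 2.58 (2.31 to 2.86). ACVR1, the neighbour of UPP2 on its other side, was at 249, 210 and 205 CPM and had a ratio of 1.10 (0.982 to 1.22). The genome build behind the counts is not given in the sources used here, and reads crossing from one gene into the next were not tested.

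The genes most like HAL were FGFR2, a fibroblast growth factor receptor, then UPP2, GOT1, the pyruvate dehydrogenase kinase PDK4 and HSD17B13, with mean correlations from 0.10 down to 0.084. FGFR2 was among the nearest 5 genes of GOT1 and GLDC as well, and its 85.2, 116 and 157 CPM gave NASH-T to Con 1.84 (1.72 to 1.98). PDK4 was at 176, 140.3 and 314 CPM, with NASH-T to NASH at 2.24 (2.14 to 2.35). For GLDC the nearest 5 included UPP2, FGFR2, CCDC148 and RORB, and for GOT1 it was UPP2, FGFR2, HAL, SHROOM3 and KCND3. Not all of these shared the higher NASH-T to Con ratio of GLDC and GOT1. KCND3 was at 1.61 (1.49 to 1.74), but SHROOM3 was at 0.319 (0.295 to 0.344) and RORB at 0.525 (0.479 to 0.575). For SDS no mean correlation over the 3 libraries passed 0.055, and no gene is singled out.

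The other enzymes of histidine breakdown did not share the profile of HAL throughout. AMDHD1, which acts further down the pathway and is the annotated neighbour of HAL, had 31.9, 49.7 and 56.7 CPM, with ratios to Con of 1.56 (1.39 to 1.74) in NASH and 1.78 (1.58 to 1.99) in NASH-T. It was found with HAL in 35 cells where 17.3 were expected, a ratio of 2.03 (1.41 to 2.82). UROC1, the urocanate hydratase of the step after HAL, was flat, at 37.6, 41.6 and 42.7 CPM. FTCD, which passes the one-carbon group of histidine to folate, was at 176, 325 and 208 CPM, highest in NASH like UPP2. Its NASH to Con ratio was 1.85 (1.77 to 1.94) over all hepatocyte-like cells. Summed over the clusters every library fills it was 1.37 (1.29 to 1.47), below 1.5-fold. Leaving out HAL, 2 of the 6 listed histidine genes measured were higher and 0 lower by at least 1.5-fold in NASH to Con, and again 2 and 0 in NASH-T to Con. The shares over all genes measured were 6.97% higher and 14.2% lower in NASH to Con, and 6.56% and 10.9% in NASH-T to Con. The median log2 ratios of the 6 were 0.10 and 0.22.

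Beside SDS and GLDC, 12 genes of serine, threonine and glycine breakdown were measured, of which 1 was higher and 1 lower in NASH to Con (over all genes 6.97% and 14.2%), and 1 was higher and 2 lower in NASH-T to Con (6.56% and 10.9%). Their median log2 ratios were -0.11 and -0.16, beside -0.12 and -0.10 for all genes. GLDC stood apart from DLD, its partner in the glycine cleavage system, which was at 14.8, 13.3 and 13.5 CPM. AMT, another partner, had 11, 8 and 5 UMIs, too few for a ratio. SHMT2, the mitochondrial serine hydroxymethyltransferase, was higher in both, at 2.32 (1.35 to 4.19) and 1.92 (1.07 to 3.59), on 18 UMIs in Con. DMGDH, which forms sarcosine from dimethylglycine, was at 547, 310 and 698 CPM, 1.76-fold lower in NASH than in Con (ratio 0.567, 0.548 to 0.587). GRHPR, which reduces glyoxylate, was 3.60-fold lower in NASH-T than in Con (ratio 0.278, 0.188 to 0.402), on 38 and 128 UMIs.

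GOT2, the mitochondrial counterpart of GOT1, was nearly level, at 75.5, 65.8 and 79.6 CPM with ratios to Con of 0.871 (0.803 to 0.946) and 1.05 (0.969 to 1.15). Leaving out GOT1, 4 of the 12 aminotransferase and glutamate genes measured were higher and 1 lower in NASH to Con (over all genes 6.97% and 14.2%), and 1 was higher and 0 lower in NASH-T to Con (6.56% and 10.9%). The latter was the alanine aminotransferase GPT2, at 1.59 (1.36 to 1.86). GLS2 was at 29.5, 53.3 and 40.0 CPM, a NASH to Con ratio of 1.81 (1.61 to 2.03).

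UPP2 had a sparse paralogue, UPP1, with 14, 41 and 8 UMIs, or 0.998, 2.07 and 0.533 CPM. Leaving out UPP2, 2 of the 14 pyrimidine genes measured were higher and 0 lower in NASH to Con (over all genes 6.97% and 14.2%), and 1 was higher and 2 lower in NASH-T to Con (6.56% and 10.9%). The median log2 ratios of the 14 were -0.07 and -0.11. The cytidine deaminase CDA was 1.79-fold higher in NASH-T than in Con (1.55 to 2.08).

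The wider pathways are given by counts at the same 1.5-fold limit, which 6.97% of all genes passed upward and 14.2% downward in NASH to Con, and 6.56% and 10.9% in NASH-T to Con. Of 15 genes of aromatic amino acid breakdown, 1 was higher in NASH to Con, KYNU of tryptophan breakdown at 1.57 (1.53 to 1.61), and 0 differed in NASH-T to Con. Of 13 genes of branched-chain amino acid breakdown, 1 was higher in NASH to Con, IVD at 1.71 (1.57 to 1.86), and 1 was lower in NASH-T to Con. Of 7 genes of lysine, proline and ornithine breakdown, 1 was lower in NASH to Con and 0 differed in NASH-T to Con. The 8 urea cycle genes had 0 past 1.5-fold in NASH to Con. In NASH-T to Con 2 were lower, ASS1 at 0.654 (0.624 to 0.686) and ASL at 0.630 (0.585 to 0.678), the argininosuccinate enzymes, while HAL, GLDC and GOT1 were higher there. Of 12 methionine and cysteine genes, 1 was higher and 2 lower in NASH to Con. The lower ones were the betaine methyltransferases BHMT, at 256, 69.2 and 293 CPM (3.70-fold lower in NASH), and BHMT2, at 361, 163 and 332 CPM.

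Among 12 measured amino acid transporters, 2 were higher and 1 lower in NASH to Con. They included SLC1A4, a carrier of serine and other neutral amino acids, at 2.58 (1.95 to 3.44). Of the 17 hormone and fasting regulators measured, which include GCGR, NR3C1 and PPARGC1A, 1 passed the limit in NASH to Con, CEBPA on 33 and 14 UMIs, at 1.67 with an interval of 0.871 to 3.38 that held 1, and at 0.704 (0.169 to 2.24) within the clusters every library fills. In NASH-T to Con 0 passed. Between NASH-T and NASH, CREM, a cyclic AMP responsive factor, was 1.63-fold higher (1.55 to 1.71). Of 7 gluconeogenesis genes measured, 0 passed 1.5-fold in any of the 3 comparisons. The periportal landmarks had 2 of 15 higher in NASH to Con and 2 of 15 lower in NASH-T to Con, and the pericentral ones had 1 of 16 higher and 4 lower, then 0 higher and 3 lower, with FMO1 at 0.652 (0.638 to 0.666) in NASH to Con.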

How the data were processed

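Cell Ranger 7.0.0 made the matrices, per the submitters' processing notes. The deposited values are UMI counts per gene and barcode. Neither genome build nor annotation is given in the sources used here. Livers were digested with 0.25% trypsin at 37 °C for about 40 min, per the labels' protocols.

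The matrices held 7485, 8731 and 9375 barcodes with 25506238, 31195014 and 29572158 UMIs for Con, NASH and NASH-T, each barcode with at least 500 UMIs. Cells with at least 200 genes, 500 UMIs and at most 20% mitochondrial UMIs were kept. Scrublet in scanpy 1.11.5 called and removed 284, 342 and 459 doublets. The 3 libraries were clustered together with 2000 variable genes, 30 principal components and Leiden resolution 0.8 (seed 0), and clusters were named from 15 marker sets. A cluster with hepatocyte markers at 0.5 of the hepatocyte level that also had 3 or more markers of some other class at 2-fold was called mixed and not used. These naming rules were set after the clusters were seen.

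UMIs were summed per library and class. Ratios carry exact conditional binomial intervals, shares carry exact binomial ones, and 0 detected cells are given with the share that 3 counts would make. With 1 library per group there was no test and no pairing. A gene counted as measured from 20 UMIs summed over the 2 libraries, and as higher or lower from a 1.5-fold ratio. Ratio and co-detection code was tested on simulated data. Named genes were the 5 members, fixed pathway partners (GCSH was not used here), up to 4 genes per list and comparison with the largest ratios past 1.5, and the 5 genes of highest mean correlation with each member, among genes with a UMI in at least 2% of thinned cells of every library. Members, the 14 gene lists and the landmark genes were chosen with earlier results of these data known. Alternatives were thinning, stricter cell filters, cells taken by marker share of at least 1% of UMIs (a limit set after the data were seen), clusters filled by every library and scaling to the median gene. Neighbours come from RefSeq ARS1.2 by symbol, with no coordinates. Some genes that the naming rule gives are not reported here.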

Additional observations from a re-analysis of the deposited data

Results flagged for a closer look

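In NASH to Con, GOT1 lay in opposite directions in 2 hepatocyte-like clusters that all libraries fill. In cluster 8, whose cells are shallow at a median of 911 UMIs, the ratio was 0.348 (0.149 to 0.723), on 9 UMIs in 219 cells of NASH against 43 in 300 cells of Con. In cluster 0 it was 1.23 (1.09 to 1.38), on 490 and 737 UMIs. With 1 library per group the difference between the clusters was not tested.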

How the results depend on the processing

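No paired analysis was possible because each group has 1 library, and for the same reason no replicate could be left out. All 15 member ratios stayed within their counting intervals with cells of at least 1000 UMIs and 500 genes and with cells taken by marker share. Summed over the clusters that hold at least 50 cells of every library, 2 ratios turned, SDS in NASH-T to NASH to 0.997 and GLDC to 1.05. There, NASH to Con moved to 1.61 for HAL, 0.809 for SDS, 1.80 for GLDC and 1.80 for UPP2, and NASH-T to NASH moved to 1.30 for HAL, 1.34 for GOT1 and 0.561 for UPP2. Fewer cells of NASH enter, since clusters 5 and 6 drop out, and the sum still carries the mix of the clusters that remain. Thinned to 1000 UMIs, UPP2 moved to 2.48 in NASH to Con and 1.13 in NASH-T to Con, and NASH-T to NASH to 5.29 for SDS and 0.944 for GLDC. Scaled to the median gene, NASH to Con moved to 2.32 for GLDC, 1.39 for GOT1 and 2.38 for UPP2, and NASH-T to Con to 2.06 for GLDC and 1.10 for UPP2. The median co-detection of the 10 pairs, 1.71, moved to 1.23 with expectation within library and cluster, where HAL and GLDC turned to 0.992. Of 144 values for pathway genes under settings chosen after seeing the data, 51 moved and 4 turned: thinned, GNMT in NASH-T to Con to 1.38 and BCKDK in NASH-T to NASH to 1.06, and in the shared clusters CEBPA to 0.704 and CYP7A1 to 0.839 in NASH to Con. Except where stated, the cause was not tested. SDS rests on 24 to 64 UMIs per library.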
